A study of Homo sapiens with 6 samples.

Results

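The genes described here are EGR1 and 9 other genes commonly read as output of ERK signalling, namely EGR2, EGR3, DUSP4, DUSP5, DUSP6, SPRY2, SPRY4, ETV4 and ETV5. They are 10 of the 20461 genes of the RNA-seq table, and all 10 were found by Ensembl identifier and current symbol. They were chosen by name, with the fragment counts and fold changes of these same vehicle and gemcitabine libraries already known, so their differences between the conditions are given as description, with standard errors and no test.

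PANC1 is an established human pancreatic carcinoma line. Cells received vehicle (0.1% DMSO) or 50 nM gemcitabine, a chemotherapy drug of the cytidine analogue class that halts DNA replication, for 48 h, and RNA-seq was done on 2 libraries of each condition. DNaseI-seq, which marks open chromatin, was done on 1 vehicle and 1 gemcitabine library. All values therefore come from 1 line, 1 dose and, for RNA, 1 time, and the labels name charcoal-stripped and dialyzed serum for the culture of these cells.

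ERK is the last kinase of the RAS-RAF-MEK-ERK cascade, which carries signals from growth factor receptors to the nucleus. Active ERK phosphorylates ternary complex factors such as ELK1, which sit with SRF on CArG boxes and switch on immediate-early genes, EGR1 among them. It also induces its own brakes, the DUSP phosphatases and the Sprouty proteins, and raises the ETS factors ETV4 and ETV5. For this reason the RNA of these genes is often used as a readout of the pathway, although each gene also answers to other signals.

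The 4 RNA libraries held 13194533 to 15766237 fragments on genes, and 3 fragments, the limit that a count of 0 allows, correspond to 0.190 to 0.227 CPM, for counting error only. Of the carcinoma line's markers, KRT7, KRT8, KRT18 and VIM had at least 5963 fragments in every library, while KRT19 had 45 to 94 and CDH1 4 to 13. Markers of other cell types were low for the most part. PRSS1, INS, GCG and CD3E were at 0 in every library, CDH5 had at most 3 fragments and PTPRC had 2 to 9. COL1A1, a fibroblast marker that carcinoma lines can also make, had 56723 to 62658 fragments. CD68 had 133 and 154 fragments with vehicle and 238 and 269 with gemcitabine. VWF had 8 and 9 against 34 and 30, and LUM 67 and 71 against 116 and 102. DCN, also a fibroblast marker, had 32 and 39 fragments against 24 and 32. Scaled for depth and length, as FPKM, DCN was instead higher with gemcitabine, at 3.22 and 3.02 against 5.02 and 6.3. The epithelial marker EPCAM had 80 and 57 fragments against 48 and 45. The part of any other cell type in the results was not tested. In bulk RNA, fewer cells with a transcript and less of it per cell cannot be told apart.

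EGR1 was lower after gemcitabine, while DUSP5, DUSP6, ETV4 and ETV5 were higher, and DUSP4 and SPRY2 overlapped between the conditions. EGR2, EGR3 and SPRY4 were near the lower limit of the libraries. At least 10 fragments over the 4 libraries were held by 9 of the 10 genes, and EGR3 was not fitted. Of the 9 genes, 5 had a log2 fold change (gemcitabine over vehicle, edgeR with TMM scaling) above 0 and 4 below 0, with a median of 0.59, against 0.0069 over all 14854 genes fitted. A fold change over 1.5 with a mean of at least 0.1 FPKM (depth-scaled fragments for each kilobase of a gene's transcripts) in 1 condition and a difference of at least 1 FPKM was met by 4 genes in the higher direction and by 1 in the lower. Of all genes fitted, 6.16% met these criteria in the higher and 4.56% in the lower direction. The scaled CPM of the conditions did not overlap for 5 genes that were higher and 2 that were lower, as for 35% and 34.7% of all genes. Because the genes were listed with this contrast known, nothing is read from these shares.

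**Figure D1:**
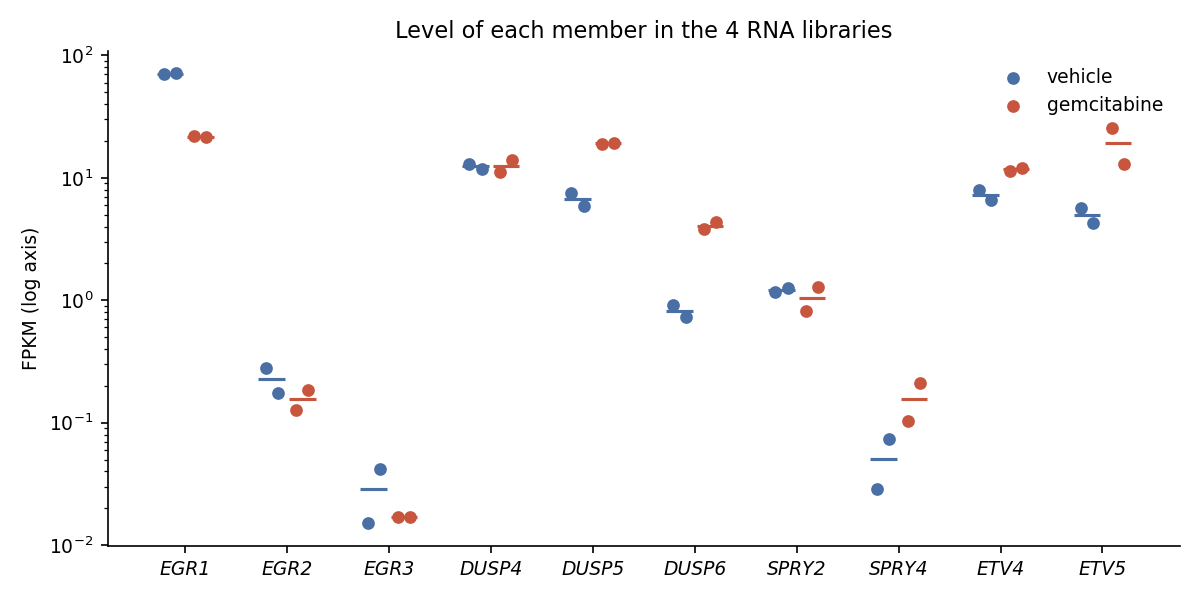
FPKM (log axis) of each of the 10 genes in each of the 2 vehicle and 2 gemcitabine libraries, 1 point per library, with a line at each mean. EGR1 lies at 70.7 and 71.5 FPKM with vehicle and 21.8 and 21.5 with gemcitabine, while DUSP5 lies at 7.53 and 5.87 against 19.0 and 19.1.

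Measured per length, EGR1 was the highest of the genes in both conditions by mean FPKM. In vehicle the order by mean FPKM was EGR1, DUSP4, ETV4, DUSP5, ETV5, SPRY2, DUSP6, EGR2, SPRY4 and EGR3. The libraries of ETV4 and DUSP5 overlapped in that order, and so did those of SPRY4 and EGR3, while the other neighbours were separate. In gemcitabine the order was EGR1, ETV5, DUSP5, DUSP4, ETV4, DUSP6 and SPRY2, with EGR2 and SPRY4 level at a mean of 0.156 FPKM and EGR3 last. There the ETV5 libraries (25.7 and 12.9 FPKM) spanned those of EGR1 and DUSP5 and overlapped those of DUSP4, and DUSP4 overlapped ETV4. The lead of EGR1 therefore narrowed. Its FPKM was 9.40 and 12.2 times that of DUSP5 in the vehicle libraries and 1.15 and 1.12 times in the gemcitabine libraries.

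EGR1 (ENSG00000120738.7, hg19 chr5:137801168-137804992, plus strand) encodes a zinc finger transcription factor made within minutes of growth factor or stress signals. The bases around its start hold matches to the binding letters of SRF and of CREB-type factors, and the sequences are shown because these are the elements through which ERK and cyclic AMP signals are known to reach the gene. EGR2, its close relative, is shown beside it since it holds the same second CArG box. Each line gives the 250 bases upstream of a RefSeq start (GRCh38.p14), the only one listed for EGR1 and the one of 3 listed for EGR2 that holds matches, from 5′ to 3′ on the gene's strand, with CArG boxes and TGACG (or CGTCA, the same letters on the other strand) in capitals.
EGR1: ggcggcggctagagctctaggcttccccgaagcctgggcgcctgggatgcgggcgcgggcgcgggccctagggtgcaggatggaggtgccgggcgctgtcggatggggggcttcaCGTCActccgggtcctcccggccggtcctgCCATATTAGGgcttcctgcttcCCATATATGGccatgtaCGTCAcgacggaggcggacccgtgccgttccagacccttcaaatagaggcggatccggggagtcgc
EGR2: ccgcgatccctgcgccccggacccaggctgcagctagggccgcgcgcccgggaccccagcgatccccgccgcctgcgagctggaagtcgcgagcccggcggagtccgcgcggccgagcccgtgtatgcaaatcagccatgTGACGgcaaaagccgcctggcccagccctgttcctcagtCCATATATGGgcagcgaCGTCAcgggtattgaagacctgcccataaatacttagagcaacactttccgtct
The EGR1 stretch has 1 exact match in hg19, at chr5:137800918-137801167, and that of EGR2 lies at chr10:64576127-64576376. The EGR1 CArG boxes are CCATATTAGG, 105 to 96 bases upstream of the start, and CCATATATGG, 83 to 74 bases upstream. EGR2 holds CCATATATGG 71 to 62 bases upstream. Over 35116 RefSeq promoter windows (250 bases before to 50 after a start), 1.29% hold a CArG box and 24.6% hold TGACG on either strand, counted per window and not per gene, so a gene with 3 windows has more chances to hold a match. These are matches of letters, and binding was not measured.

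With vehicle, EGR1 had 3383 and 3741 fragments, and with gemcitabine 990 and 932. Both gemcitabine libraries lay far below both vehicle libraries, and replicates were close to each other. The mean was 71.1 ± 0.566 FPKM (SD, n = 2) with vehicle and 21.6 ± 0.271 FPKM (SD, n = 2) with gemcitabine. The log2 fold change was -1.78 (SE 0.0699), which is 3.42-fold lower after gemcitabine. Ranked by log2 fold change among 12843 genes whose mean reached 1 CPM, the fall of EGR1 took rank 9. Of all genes in the table, 89.7% had a lower mean FPKM than EGR1 in vehicle and 71.9% in gemcitabine. Leaving out any 1 library gave log2 fold changes from -1.81 to -1.73, and the other scalings, filters and tools gave -1.77 to -1.66.

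The other EGR genes were scarce. EGR2 (ENSG00000122877.8, chr10:64571756-64578927, minus strand), a factor best known from myelinating Schwann cells and lymphocytes, had 13 and 10 fragments with vehicle and 6 and 7 with gemcitabine. Its scaled CPM was lower in both gemcitabine libraries, while its FPKM (0.281 and 0.175 against 0.126 and 0.185) overlapped. The log2 fold change was -0.70 with an SE of 0.521, and it ranged over the alternatives from -0.90 (without vehicle library 2) to -0.09 (on log2(FPKM + 1)), so its size is not resolved at this depth. EGR3 (ENSG00000179388.8, chr8:22545172-22550993, minus strand), a factor induced alongside EGR1 in many cells, had 1 and 3 fragments against 1 and 1. All of its libraries were at or below 3 fragments, and no fold is given.

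**Figure D2:**
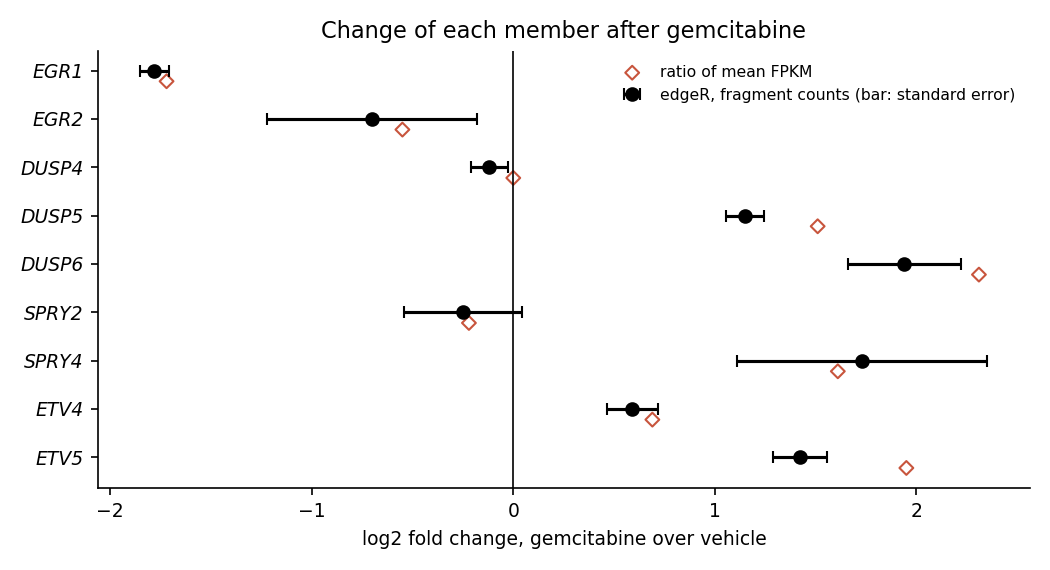
Log2 fold change (gemcitabine over vehicle) of the 9 genes with at least 10 fragments, from edgeR on fragment counts (filled points, bars are the standard error) and as the ratio of mean FPKM (open diamonds). EGR1 lies at -1.78 and DUSP6 at 1.94, and SPRY4 and EGR2 have the widest bars, 0.622 and 0.521.

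The DUSP genes encode phosphatases that remove the activating phosphates of MAP kinases. DUSP4 and DUSP5 act in the nucleus and DUSP6 in the cytoplasm, and DUSP5 and DUSP6 are selective for ERK. Gemcitabine libraries were higher for DUSP5 and DUSP6, and DUSP4 did not follow.

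DUSP5 (ENSG00000138166.4, chr10:112257665-112271291, plus strand) had 245 and 252 fragments with vehicle and 506 and 515 with gemcitabine. The conditions did not overlap and the replicates nearly coincided. The log2 fold change was 1.15 (SE 0.0944), or 2.22-fold higher, and the ratio of mean FPKM was 2.85. DUSP6 (ENSG00000139318.6, chr12:89741012-89746278, minus strand), the phosphatase most often used as an ERK readout, had 17 and 22 fragments with vehicle and 63 and 76 with gemcitabine. All libraries were low, yet both gemcitabine libraries stood above both vehicle libraries. The log2 fold change was 1.94 (SE 0.279), or 3.84-fold higher. The mean went from 0.821 ± 0.125 to 4.06 ± 0.366 FPKM (SD, n = 2 each), a ratio of 4.95. DUSP4 (ENSG00000120875.4, chr8:29190581-29208201, minus strand) had 1133 and 1122 fragments with vehicle and 859 and 1054 with gemcitabine. After scaling, a gemcitabine library lay between the vehicle libraries (CPM 77.9 and 73.7 against 61.9 and 77.4), and the log2 fold change of -0.12 (SE 0.092) was -0.29 without gemcitabine library 2 and 0.03 without gemcitabine library 1.

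SPRY2 and SPRY4 encode Sprouty proteins, membrane-associated inhibitors that restrain RAS and RAF after receptor activation. SPRY2 (ENSG00000136158.6, chr13:80910111-80915261, minus strand) had 37 and 43 fragments with vehicle and 26 and 36 with gemcitabine. The conditions overlapped in scaled CPM and in FPKM, with a log2 fold change of -0.25 (SE 0.292). SPRY4 (ENSG00000187678.8, chr5:141689992-141706020, minus strand) had 2 and 6 fragments with vehicle and 9 and 16 with gemcitabine. Both gemcitabine libraries were higher, but 1 vehicle library was below 3 fragments and the difference of mean FPKM was under 1. The fitted log2 fold change of 1.73 (SE 0.622) was 1.20 without vehicle library 1 and 2.66 without vehicle library 2, and was as low as 0.14 on log2(FPKM + 1), a scale that understates changes of low genes.

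Promoter sequence is shown for DUSP6, which alone among the genes with a RefSeq entry had a match to CGGAAG, a form of ETS site. It is shown for SPRY2 as the only one with a match to GCGGGGGCG, a form of EGR site. Each line gives the 250 bases upstream of a RefSeq start, 5′ to 3′ on the gene's strand (GRCh38.p14), the only one listed for DUSP6 and the one of 3 listed for SPRY2 that holds matches, with these matches and TGACG in capitals, also where they are read on the other strand (CTTCCG, CGCCCCCGC).
DUSP6: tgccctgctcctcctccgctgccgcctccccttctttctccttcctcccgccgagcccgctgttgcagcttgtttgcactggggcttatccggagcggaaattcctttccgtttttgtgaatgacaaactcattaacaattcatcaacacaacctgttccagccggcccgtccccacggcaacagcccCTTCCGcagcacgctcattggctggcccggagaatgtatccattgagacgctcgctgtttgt
SPRY2: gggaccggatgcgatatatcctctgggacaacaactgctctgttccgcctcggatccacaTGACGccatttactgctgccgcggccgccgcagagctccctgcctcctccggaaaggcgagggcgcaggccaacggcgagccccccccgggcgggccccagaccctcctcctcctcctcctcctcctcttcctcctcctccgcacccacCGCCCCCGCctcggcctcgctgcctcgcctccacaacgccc
In hg19 the DUSP6 stretch lies at chr12:89746279-89746528 and its match 62 to 57 bases upstream of the start. The SPRY2 stretch lies at chr13:80915262-80915511 and its EGR letters 41 to 33 bases upstream. CGGAAG is held by 19.5% of the 35116 windows and GCGGGGGCG by 5.07%. An entry was held by 5 of the 10 genes, EGR1, EGR2, DUSP6, SPRY2 and SPRY4. TGACG was found in 4 of these 5, all but DUSP6, whereas TGANTCA (an AP-1 site, in 7.71% of windows), GCGTGGGCG (in 0.795%) and TATAAA (in 11.5%) were found in 0 of them. Both strands were searched, and none of these letters says whether a factor was bound.

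ETV4 and ETV5 encode closely related ETS transcription factors of the PEA3 group, which are induced by ERK and take part in cell migration and branching of epithelia. ETV5 (ENSG00000244405.3, chr3:185764103-185828107, minus strand) had 123.0 and 131.0 fragments with vehicle and 285.0 and 344.0 with gemcitabine. Each gemcitabine library stood above both vehicle libraries, and the log2 fold change was 1.42 (SE 0.134), or 2.68-fold higher. Its FPKM was less even, at 5.70 and 4.31 against 25.7 and 12.9. One FPKM of ETV5 stood for 11.1 and 26.6 fragments in the gemcitabine libraries and for 21.6 and 30.4 in the vehicle libraries, whereas for EGR1 it stood for 43.4 to 52.3 fragments in all 4. FPKM is summed over the isoforms of a gene, and the part of their assignment in this spread was not tested. ETV4 (ENSG00000175832.8, chr17:41605212-41656988, minus strand) had 232.0 and 211 fragments with vehicle and 278 and 337 with gemcitabine. The conditions did not overlap, and the log2 fold change was 0.59 (SE 0.127), or 1.5-fold higher. It lies just over the fold limit, and was under it without gemcitabine library 2 (0.43) or vehicle library 2 (0.49).

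Of the cascade genes HRAS, NRAS, ARAF, BRAF, MAP2K1, MAP2K2 and MAPK3, none met the criteria of a call. Among 34 fitted genes of the cascade core (receptor adaptors, RAS, RAF, MEK, ERK and the ribosomal S6 kinases), 19 were above 0 on the log2 fold scale, with a median of 0.02. A gene was called when, beside the fold and FPKM criteria above, its adjusted p in edgeR's quasi-likelihood test was under 0.05, which held for 5.69% of all genes in the higher and 4.42% in the lower direction. Here 3 genes rose, RRAS (log2 fold change 0.68), a RAS-related GTPase, KSR1 (0.60), a scaffold of RAF and MEK, and RPS6KA2 (0.63), a kinase downstream of ERK, and 0 fell. Without the fold and FPKM criteria, 8 were higher and 6 lower at an adjusted p under 0.05, beside 18.5% and 20% of all genes. The call of KSR1 was lost without gemcitabine library 1 (0.57). In edgeR's test the log2 fold change of NRAS was -0.11 (adjusted p = 0.254), that of MAP2K1, a MEK kinase, 0.06 (0.546) and that of MAPK3, which encodes ERK1, 0.10 (0.332). HRAS had a value of -0.33 (adjusted p = 0.0264 in edgeR's test), and its sign turned on the log2(FPKM + pseudocount) scale. RNA of the kinases says nothing of their phosphorylation, which was not measured in these libraries.

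**Figure D3:**
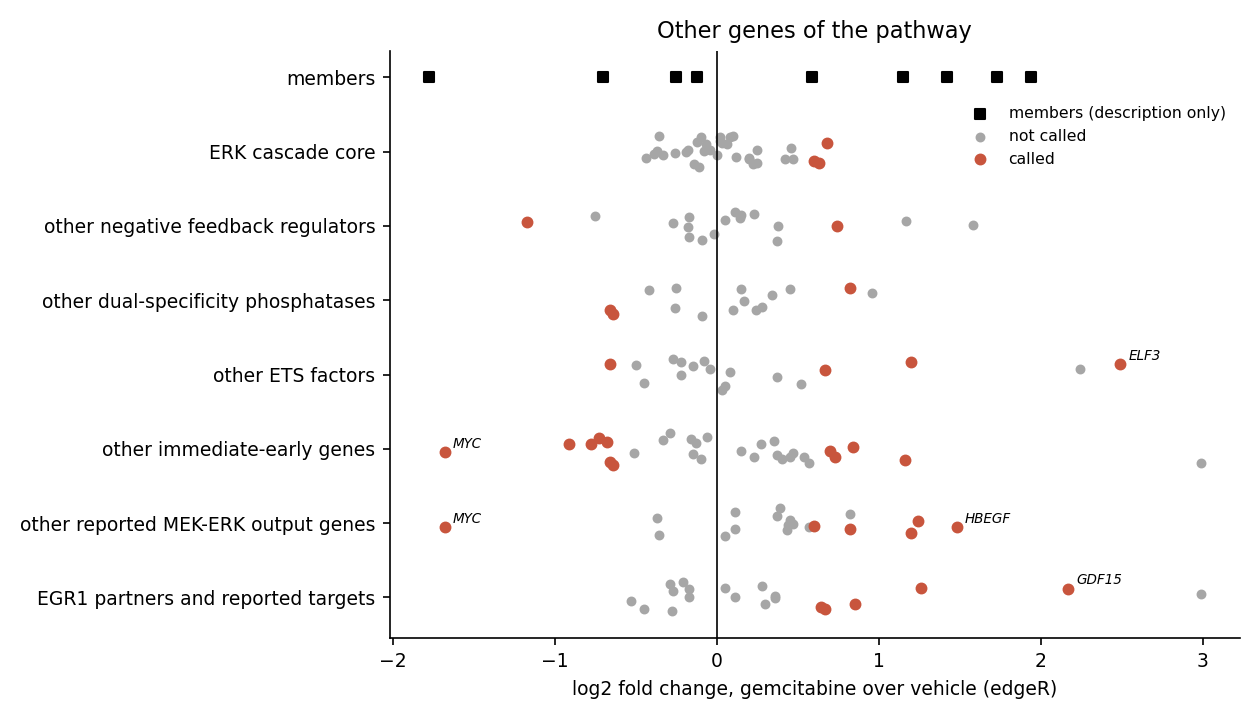
Log2 fold change (gemcitabine over vehicle, edgeR) of each fitted gene in the 7 pathway lists and of the 9 fitted genes described here, 1 point per gene. Red points are called, grey points are not, and black squares are the genes described here, which were not tested. Called points lie on both sides of 0, from MYC at -1.68 to ELF3 at 2.49.

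Among 18 fitted feedback regulators, 1 was called higher and 1 lower, and among 15 fitted phosphatases other than DUSP4, DUSP5 and DUSP6, 1 was called higher and 2 lower, beside 5.69% and 4.42% of all genes. With so few calls, nothing is read from these counts about the brakes as a group. ERRFI1, an inhibitor of EGF receptor kinase, rose (log2 fold change 0.74) and SPRY1, another Sprouty gene, fell. SPRY1 had 58 and 74 fragments with vehicle and 28 and 26 with gemcitabine (log2 fold change -1.17, SE 0.261, adjusted p = 0.00261 in edgeR's test), and its call was lost without vehicle library 2 (-1.01). DUSP10, which acts mainly on JNK and p38, rose (0.82), while DUSP1 and DUSP7 fell. DUSP1, an immediate-early phosphatase, had 3990 and 4062 fragments with vehicle and 2317 and 2390 with gemcitabine (log2 fold change -0.66, SE 0.0661, adjusted p = 3.51e-06 in edgeR's test). The call of DUSP7 (-0.64) was lost without gemcitabine library 2 (-0.57). The medians of these lists were 0.08 and 0.15.

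Of the immediate-early genes that share induction with EGR1, 15 of 30 were above 0 and the median was 0.05. Of the 30, 7 were called lower and 4 higher, beside 4.42% and 5.69% of all genes. At an adjusted p under 0.05 alone, 10 were lower and 12 higher, beside 20% and 18.5% of all genes. No direction of the list is read from these counts. MYC, the growth-promoting transcription factor, fell most, from 10326 and 9836 fragments down to 2775 and 3034 (log2 fold change -1.68, SE 0.0769, adjusted p = 5.88e-09 in edgeR's test). FOS, an AP-1 subunit, had 3314 and 3327 fragments with vehicle against 1904 and 1788 (log2 fold change -0.73). The zinc finger factor KLF4 (-0.91), the orphan nuclear receptors NR4A2 (-0.78) and NR4A1 (-0.66) and the stress sensor GADD45B (-0.68) also fell, as did IER2 (-0.64), which was named after its values were seen. FOSB, another AP-1 subunit, rose (1.16, from 74 and 93 fragments to 166.0 and 179), as did CCN2 (0.84), a matricellular protein, MAFF (0.73) and IER5 (0.70). Calls were lost without vehicle library 1 for IER2 (-0.58), without vehicle library 2 for NR4A1 (-0.57) and MAFF (0.50), and without gemcitabine library 1 for IER2 (-0.46).

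Of 19 fitted genes of the list of other reported MEK-ERK output, which was written with earlier results of these libraries known, 16 were above 0 and the median was 0.44, beside 7537 of 14854 genes above 0 (50.7%) and a median of 0.0069 over all genes. Calls were made for 5 higher and 1 lower, beside 5.69% and 4.42% of all genes, and the counts are no independent evidence of a direction. The growth factor HBEGF, an EGF receptor ligand, rose from 43 and 67 fragments to 133 and 150 (log2 fold change 1.48, adjusted p = 5.65e-05 in edgeR's test). LIF, a cytokine of the interleukin 6 family, rose from 308 and 312 to 712 and 646 fragments (1.24, adjusted p = 2.05e-07). ETV1, the remaining PEA3 factor, rose beside ETV4 and ETV5, from 137 and 128 to 245 and 317 fragments (1.20, SE 0.149). KCNN4 (0.82), a potassium channel, and EPHA2 (0.60), an ephrin receptor, completed the 5 that rose, and MYC was the 1 that fell. The calls of KCNN4 without vehicle library 1 (0.69), and of EPHA2 without vehicle library 2 (0.58) or gemcitabine library 2 (0.57), were lost.

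Among 18 other ETS factors fitted, 9 were above 0, and 3 were called higher and 1 lower, beside 5.69% and 4.42% of all genes. At an adjusted p under 0.05 alone, 4 were higher and 6 lower, beside 18.5% and 20% of all genes. ELF3, an epithelial ETS factor, rose most, from 66 and 60 fragments to 316 and 340 (log2 fold change 2.49, SE 0.142, adjusted p = 3.54e-08 in edgeR's test). ETV1, also of the list above, and ETS1 (0.67) rose and GABPA (-0.66) fell, and the calls of ETS1 without gemcitabine library 2 (0.56) and of GABPA without vehicle library 2 (-0.56) were lost.

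Of 20 EGR1 partners and reported targets, 12 were above 0 and the median was 0.20. Calls were made for 5 higher and 0 lower, beside 5.69% and 4.42% of all genes. A count of 0 among 20 genes lies near the share of 4.42%, so nothing is read from it about EGR1. GDF15, a stress-induced cytokine, rose from 214 and 208 fragments to 924 and 836 (log2 fold change 2.17, adjusted p = 3.59e-09 in edgeR's test). ICAM1, an adhesion molecule, rose by a log2 fold change of 0.85, F3, the tissue factor, by 0.67 and FN1, fibronectin, by 0.64. The call of F3 was lost without either vehicle library (0.71 and 0.65) and without gemcitabine library 1 (0.40). At an adjusted p under 0.05 alone, 8 of the 20 were higher and 5 lower, beside 18.5% and 20% of all genes.

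Over the 141 fitted genes of the 7 lists, each counted once, 21 were called higher and 11 lower, so that 65.6% of the calls were higher. Scaling by library totals in place of TMM shifted the median of all genes from 0.0069 to 0.12 and gave 24 higher and 5 lower, or 82.8% higher. The fold changes of DUSP1 (-0.55), DUSP7 (-0.53), GABPA (-0.55), GADD45B (-0.57), IER2 (-0.53) and NR4A1 (-0.55) then no longer met the criteria, and neither did they with limma on log2(FPKM + pseudocount), where NR4A2 (-0.60 at a pseudocount of 1), KCNN4 (0.69) and, at that pseudocount alone, EPHA2 (0.57) were also lost. Over all genes the same change took the higher share of calls from 56.3% to 73.6%.

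By their profile over the 4 libraries, the genes nearest to EGR1 among 8134 genes with a mean of at least 10 FPKM were FJX1, MYC, HPDL, TFAP4 and NDUFAF4. Their distances from EGR1, in log2 CPM centred on each gene's own mean, ran from 0.23 to 0.30, and their log2 fold changes from -1.72 to -1.59. MYC, also an immediate-early gene, is in a list above, while TFAP4 encodes a helix-loop-helix transcription factor and NDUFAF4 an assembly factor of respiratory complex I. The genes nearest to DUSP5 were PLEKHO2, STING1, GBP1, UBE2L6 and SDC4, at distances of 0.04 to 0.07 and with log2 fold changes of 1.09 to 1.22. STING1 encodes the adaptor that responds to DNA in the cytoplasm, GBP1 an interferon-induced GTPase and SDC4 a syndecan. With 4 libraries of 2 conditions, such likeness rests mostly on 1 contrast.

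Open chromatin was read from the DNaseI peak lists, with 9606 peaks for vehicle and 10695 for gemcitabine. This measure was not used to list the genes, but with 1 library per condition it carries no test, and a peak absent from a list may lie just below its threshold. A peak lay within 5 kb of an annotated start of 2 of the 10 genes in the vehicle list (EGR1 and ETV5) and of 3 in the gemcitabine list (EGR1, SPRY4 and ETV4). Of all 18838 genes, 24.7% and 28.3% had such a peak. The 10 genes lie close to these shares, and nothing particular to them is read from the counts.

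**Figure D4:**
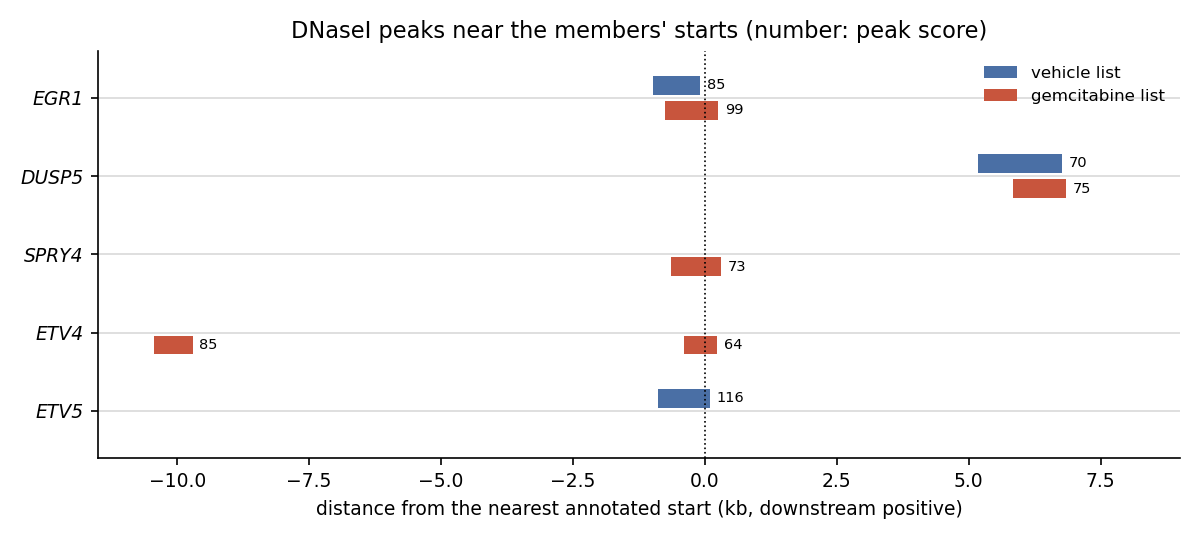
Peaks near the starts of the 5 genes that have any within 50 kb, as distance in kb from the nearest annotated start (downstream positive), in the vehicle and gemcitabine lists, with each peak's score printed beside it. EGR1 has a peak in both lists, over its start in gemcitabine and ending 87 bases before the start in vehicle. DUSP5 has an intronic peak in both, and those at the starts of SPRY4, ETV4 and ETV5 are in 1 list each. A peak pair about 46 kb from ETV4 is outside the axis.

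EGR1 had a peak in both lists although its RNA was lower after gemcitabine. In vehicle it spanned chr5:137800187-137801081 with a score of 85.34 (a measure that grows as the p-value of the peak caller shrinks) and ended 87 bases before the start. In gemcitabine it spanned chr5:137800419-137801425 with a score of 99.30 and covered the start. The peaks shared 74.1% of the shorter one. The upstream CArG box CCATATTAGG lies inside both peaks, and the nearer one, CCATATATGG, inside the gemcitabine peak only. That nearer box starts at 137801085, just past the end of the vehicle peak at 137801081. With 1 library per condition, no opening of the box is read from this. Of the 250 bases printed for EGR1, 164 lie in the vehicle peak and all 250 in the gemcitabine peak.

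DUSP5, DUSP6, ETV4 and ETV5, which were higher after gemcitabine, did not share 1 pattern of peaks. ETV4 had a peak over a start in the gemcitabine list alone (chr17:41623453-41624092, score 63.91), and a further one in an intron (chr17:41633414-41634139, score 85.07). SPRY4, whose RNA was near the lower limit, also had one over a start in gemcitabine alone (chr5:141704257-141705201, score 73.39). ETV5, in contrast, had its peak in the vehicle list alone (chr3:185826616-185827606, score 115.87), and 86.2% of vehicle peaks scored lower. DUSP5 had an intronic peak in both lists, at chr10:112262851-112264435 (score 69.53) and chr10:112263497-112264517 (score 74.84), 5186 and 5832 bases from the start. DUSP6, DUSP4, SPRY2, EGR2 and EGR3 had no peak within 50 kb of a start in either list.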

How the data were processed

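RNA-seq libraries (2 vehicle, 2 gemcitabine) and DNaseI-seq peak lists (1 of each) of PANC1 cells were taken as deposited. The authors aligned reads to hg19 with TopHat2 2.0.8, and Cuffdiff 2.0.2 assigned them to Gencode protein-coding genes. The deposited table gives estimated counts (fragments per gene, not normalized, 86.8% of values exactly whole, with no tolerance) and FPKM, which the authors obtained from Cuffdiff. The 2 further columns of scaled values were not used. The deposited peaks carry a score, which the authors obtained from MACS, called separately in each condition.

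The 10 genes, the 7 lists and the rules for naming genes were chosen with earlier results of these data known. The lists (ERK cascade core, other negative feedback regulators, other dual-specificity phosphatases, other ETS factors, other immediate-early genes, other reported MEK-ERK output genes, EGR1 partners and reported targets) hold 157 distinct genes, 1 of which (DUSP14) was not matched. Named from them were all called genes, up to 6 a list and direction, and IER2 was added after its values were seen. Beside these, cascade genes and the 5 nearest profiles to EGR1 and to DUSP5 were named. A few genes that qualify by these rules are left unreported. Symbols were matched for 19619 of 20461 identifiers.

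Estimated counts were rounded, and the 14854 genes with at least 10 fragments in all were fitted with edgeR 4.0.16 (TMM, factors 0.959 to 1.05, quasi-likelihood test, Benjamini-Hochberg adjustment over all genes, R 4.3.3). The common coefficient of biological variation was 0.0522. Replicates, biological per the methods of the study, differed by more than sampling noise (chi-square per gene 2.21 for vehicle and 5.40 for gemcitabine), and p-values measure the spread between these libraries only. Cuffdiff was not rerun. Alternatives used DESeq2 1.42.0, limma 3.58.1 on FPKM, other scalings and filters, and each library left out. Starts came from a later Gencode annotation lifted to hg19, and promoters from RefSeq (GRCh38.p14). Library numbers are those of the table.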

Additional observations from a re-analysis of the deposited data

How the results depend on the processing

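No paired analysis was possible because the library index of the table does not match the replicate numbering in the labels by any stated rule, and a fit with a replicate block was not run. Genes called lower numbered 418 of all genes with library totals, 326 with limma on log2(FPKM + 1) and 350 on log2(FPKM + 0.1), against 656, and the pathway lists then had 5, 4 and 4, against 11. With an adjusted p under 0.05 alone, 5726 genes passed (2751 higher, 2975 lower), of which 76 in the lists (44 higher, 32 lower). Leaving out 1 library gave 1268 to 1694 calls over all genes, 674 to 923 higher and 594 to 771 lower, and 27 to 32 in the lists, 19 to 22 higher and 8 to 11 lower. With 1 library left out, the other arm is assumed to vary like the pair. For 42 genes of the lists and the cascade that met the naming rules, 424 of 462 recomputed values kept direction and call, 38 lost the call and 0 reversed. Of the 9 fitted genes described, 5 to 6 were above 0 without 1 library. Over all alternatives, 24 of their 97 recomputed log2 fold changes differed from the main value by at least the gene's replicate SD (log2 CPM). DUSP5 ranged from 1.13 to 1.51, DUSP6 from 1.47 to 2.18 and ETV5 from 1.27 to 1.86. With a peak score of at least 100, 1 gene had a peak in either list, beside 11.3% of all genes. The vehicle list had 1 (beside 7.02%) and the gemcitabine list 0 (beside 8.65%). A window of 50 kb gave 4 in the vehicle list and 4 in the gemcitabine list, beside 50.6% and 54.5% of all genes. Depth limits EGR2, EGR3 and SPRY4, whose libraries hold at most 16 fragments each.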
